A study of Harpegnathos saltator with 36 samples.

Results

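In reproducing ants of Harpegnathos saltator, a small group of genes was lower than in workers in the brain and higher than in workers and revertants in the ovary. The 39 genes described here were those with lower expression in every gamergate brain than in every worker brain, and with higher expression in every gamergate ovary than in every worker and every revertant ovary. They were drawn from the 12654 genes of the deposited count tables. Expression is given as CPM, the reads of a gene scaled to the total counted in its library, and the members were chosen by these measured values themselves, as log2(CPM + 1). A gene needed a mean of at least 5 CPM over the 12 libraries of each tissue, which left 7785 genes. The brain gap was the lowest worker value minus the highest gamergate value, and the ovary gap was the lowest gamergate value minus the highest value among workers and revertants. A positive brain gap was found in 419 genes (5.38%), a positive ovary gap in 1355 genes (17.4%), and both in 41 genes. These 41 were 9.79% of the genes with a brain gap and 3.03% of those with an ovary gap. Leaving out LOC105183446 and LOC105186969, as the rule asks, gave the 39 members.

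Gamergates are former workers that began to lay eggs in a group of workers kept without a reproductive female, and their status was determined after 3 months. Revertants are gamergates that were isolated for 4 weeks and then transferred to an established colony, in which nestmates policed them and they lost reproduction. Workers are the nonreproductive nestmates of the gamergates. All ants were 6 months old females, each library was made from polyA RNA of 1 ant, and the tissues were whole ovaries and brains freed of their optic lobes. There were 4 libraries per caste and tissue, 24 in all, and the labels do not say whether a brain and an ovary came from the same ant. The gamergates shared their transition colony with the workers, whereas the revertants belonged to the reversion colony, so that colony and caste cannot be told apart in any comparison with revertants.

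The brain libraries held 1660576 to 1799316 counts in gamergates, 4115800 to 12917125 in revertants and 1339043 to 4926716 in workers. The ovary libraries held 5354569 to 23882325 counts in gamergates, 1663266 to 7391217 in revertants and 1863023 to 7519671 in workers. Library size followed caste in the brain, since all gamergate libraries and worker libraries 2 and 4 were under 3500000 counts while all revertant libraries and worker libraries 1 and 3 were over it. Most markers fitted the tissues: nSyb of neurons averaged 246 CPM in gamergate brains and 3.18 CPM in gamergate ovaries, repo of glia 166 and 0.788 CPM, and vas of the germ line 106 and 668 CPM. Some listed markers went the other way. The neuron marker CUGBP Elav-like family member 2 averaged 62.4 CPM in gamergate brains and 287 CPM in gamergate ovaries. Among glia markers, excitatory amino acid transporter 1 averaged 32.1 and 40.1 CPM, and moody 19.8 and 21.4 CPM. Vitellogenin, the yolk precursor made mainly in the fat body, took 1.65% to 6.26% of the counts of gamergate brains, 0.0433% to 0.289% of revertant brains and 0.0214% to 0.232% of worker brains. Other listed fat body markers were also highest in gamergate brains. Hex70a averaged 342 CPM in gamergate, 1.23 CPM in revertant and 0.566 CPM in worker brains. The hexamerin LOC105185160 averaged 450, 8.89 and 15.2 CPM, and the remaining ones at most 5.51 CPM in gamergate brains. The part of these RNAs in the levels of other genes was not tested. In RNA from a whole tissue, fewer cells of a type and less RNA per cell cannot be told apart.

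Reproduction in insects is fuelled by nutrients that reach the ovary from the fat body, and oogenesis calls for intense protein synthesis, mitochondrial supply and signalling between the germ line and the follicle cells around it. The brain directs this process through neuropeptides and through changes in behaviour. Members fell into roles by their protein names and RefSeq symbols. There were 8 signalling and membrane genes, 7 of metabolism and transport, 6 of the mitochondrion, 6 assigned to the nervous system, 5 of transcription and RNA, 3 of protein synthesis and turnover, and 4 without an assigned role. All 39 are annotated as protein coding.

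Most members cleared the rule narrowly in the brain and more widely in the ovary. The median brain gap was 0.17 log2 units (0.02 to 1.57) and 9 of 39 gaps were at least 0.25, while the median ovary gap was 0.38 (0.01 to 3.06) and 29 of 39 were at least 0.25. Just inside the threshold were LOC105183988, RanBPM and Gdh, with a smaller gap of 0.019, 0.019 and 0.0084. Just outside it were LOC105185623, Cyt-c1 and LOC105180608, with −0.0025, −0.0094 and −0.011. The edgeR quasi-likelihood test called 2 of the 37 members it could test lower in gamergate than worker brains at a Benjamini-Hochberg adjusted p under 0.05, beside 0.719% of the 8481 genes tested. The 2 were SC35 and Elk. For refits without 1 library the share of all genes called was not determined. The count was 20 without worker library 4, and 0 without worker library 1, without worker library 3 or without any 1 of the gamergate libraries. With library size class, defined above, as a term in 1 fit of all brains it was 6, beside 1.31% of the genes, and among the libraries under 3500000 counts it was 5, beside 2.11%. The test called all 39 higher in gamergate than worker ovaries, beside 29.4% of 9267 genes, and all 39 higher in gamergate than revertant ovaries, beside 28.7% of 9228 genes. These 3 contrasts chose the members, so their values are a description and nothing is read from the counts. Summed over the members, the level was 2218 to 2285 CPM in gamergate brains, 3270 to 3432 CPM in revertant brains and 2896 to 3263 CPM in worker brains. In the ovary the sum was 7561 to 8065 CPM in gamergates, 3290 to 4319 CPM in revertants and 3551 to 4190 CPM in workers. Muscle markers moved in the ovary along with the members and the other way: 8 of them summed to 129.8 to 148 CPM in gamergates, 305 to 898 CPM in revertants and 320 to 1997 CPM in workers, with none at 0, and their part in the ovary result was not tested.

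**Figure D1:**
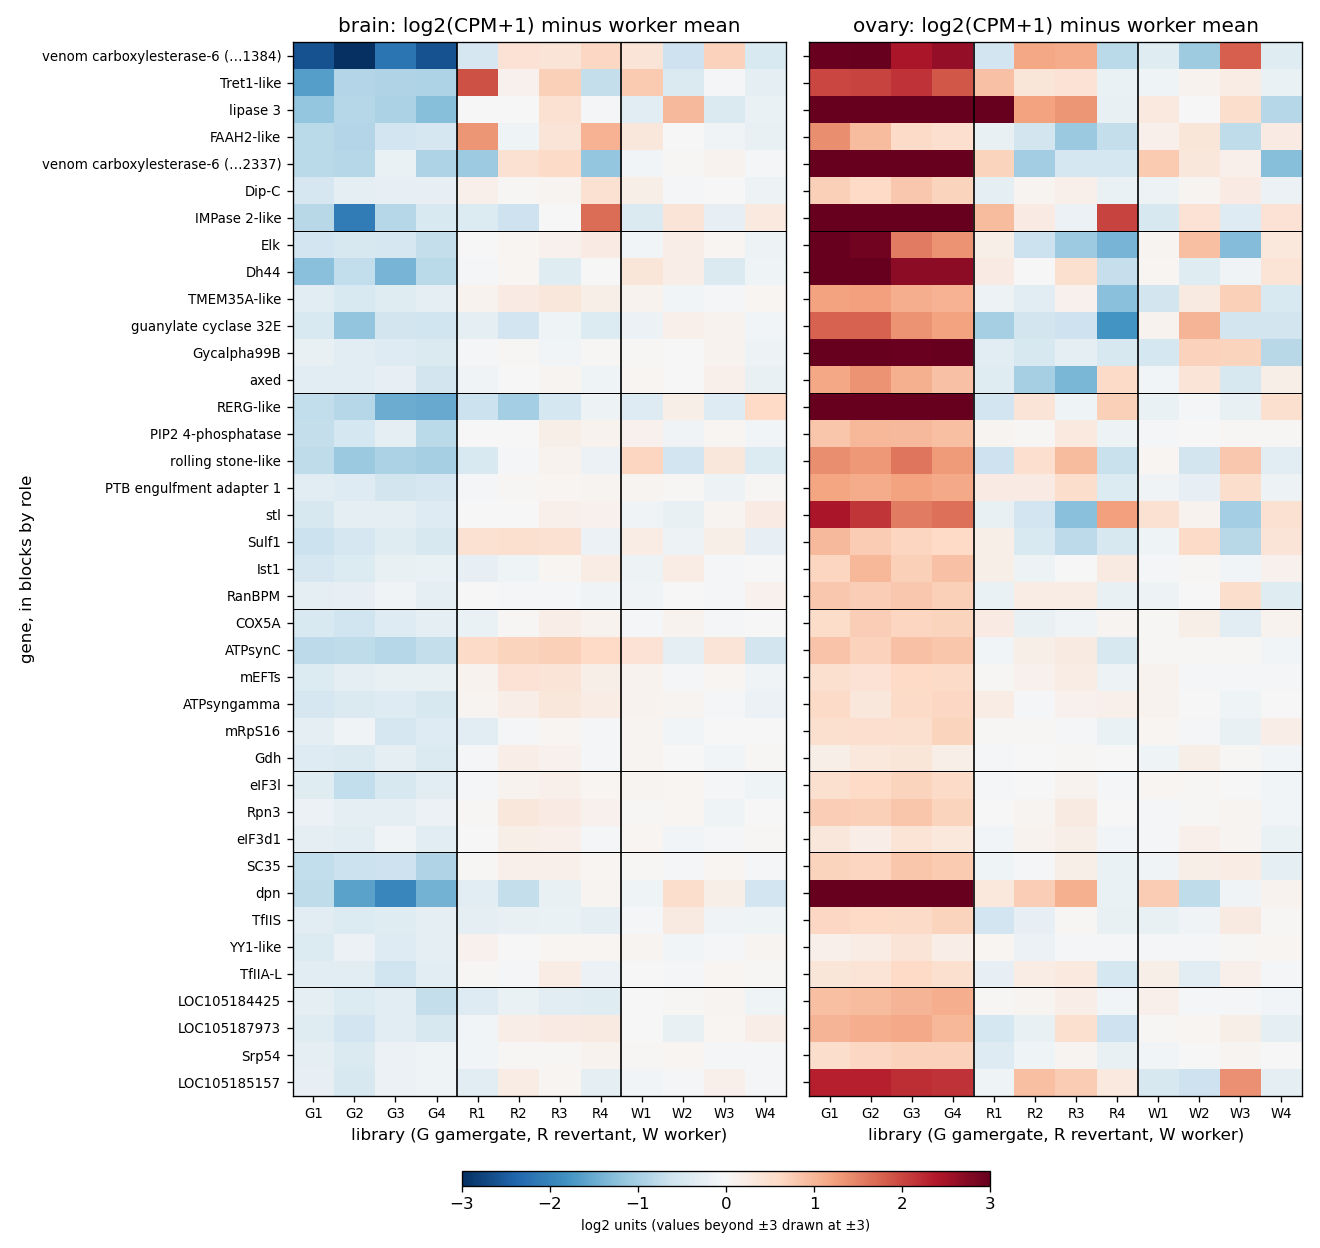
Level of each of the 39 members (rows, in blocks by role) in each of the 12 brain and 12 ovary libraries (columns, G gamergate, R revertant, W worker), as log2(CPM + 1) minus the mean of the 4 worker libraries of that tissue; blue is lower and red is higher than workers, and values beyond 3 are drawn at 3. All gamergate columns are on the blue side in the brain and the red side in the ovary, as the rule requires. Many brain differences are pale on this scale, with gamergate means from −2.67 (LOC105191384) to −0.22 (Rpn3) log2 units relative to workers. Revertant means in the brain lie between −0.59 (LOC105186979) and 0.66 (LOC105190920).

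Relative to workers, genes of metabolism and transport had the largest median fold changes of the roles in both tissues, in the brain over the 5 of 7 that could be tested. Relative to revertants the largest ovary median was that of the genes assigned to the nervous system, 3.01 against 2.36 on the log2 scale. LOC105189530 encodes a facilitated trehalose transporter Tret1, which in Drosophila and other insects moves the blood sugar trehalose across cell membranes. Its level was 24.3, 42.2, 41.1 and 40.5 CPM in gamergate brains, 297, 85.0, 128 and 46.9 CPM in revertant brains and 135, 58.0, 74.8 and 63.5 CPM in worker brains. All gamergate brains were low, and revertant library 1 stood far above every other brain. Its ovary levels were 390.0, 398, 436 and 354 CPM in gamergate ovaries, 179, 125, 130.4 and 83.9 CPM in revertant ovaries and 88.4, 105, 113 and 84.3 CPM in worker ovaries, so that every gamergate ovary held more than all others. The log2 fold change of gamergates over workers was −1.27 in the brain and 2.17 in the ovary. LOC105186640 encodes lipase 3, an enzyme that splits neutral lipids. It was at 5.66, 7.23, 6.67 and 5.13 CPM in gamergate brains, 13.7, 13.8, 19.4 and 13.4 CPM in revertant brains and 10.8, 28.3, 10.1 and 11.9 CPM in worker brains. Gamergate brains were the lowest and worker library 2 was the highest of all brains. In the ovary lipase 3 was at 419, 748, 959 and 1239 CPM in gamergate ovaries, 123, 12.0, 13.1 and 3.84 CPM in revertant ovaries and 5.95, 4.74, 7.18 and 2.15 CPM in worker ovaries. It had the largest ovary fold change of the members, 7.42 on the log2 scale over workers, and revertant ovary 1 lay far above the other revertants and all workers.

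Both members named venom carboxylesterase-6, LOC105191384 and LOC105182337, carry the name of a serine hydrolase family. How reads that match both were counted is not given in the sources used here, so their split between the genes is uncertain. LOC105191384 had the widest brain difference, with 1, 0, 2 and 1 reads in gamergate brains, 39, 154, 78 and 57 reads in revertant brains and 57, 8, 58 and 8 reads in worker brains. With reads and library totals each summed over the libraries of a caste, its level in gamergate brains was 0.0514 times that in worker brains. The 95% exact interval, 0.0138 to 0.135, covers counting error only. Its ovary level was 170.0, 185, 119.9 and 136 CPM in gamergate ovaries, 13.8, 48.3, 46.7 and 11.5 CPM in revertant ovaries and 16.1, 9.48, 75.1 and 16.1 CPM in worker ovaries. The gamergate ovaries were the highest, and worker library 3 and revertant libraries 2 and 3, the libraries of those castes over 3500000 counts, lay above the other 5. LOC105182337 was at 6.22, 6.02, 10.004 and 5.70 CPM in gamergate brains, 4.93, 16.3, 17.9 and 4.62 CPM in revertant brains and 10.96, 11.9, 12.6 and 11.2 CPM in worker brains. Revertant libraries 1 and 4 were below every gamergate brain, while revertant libraries 2 and 3 were above every worker brain. In the ovary it ranged over 68.0 to 119.9 CPM in gamergate ovaries, 2.03 to 9.02 CPM in revertant ovaries and 1.61 to 9.82 CPM in worker ovaries.

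The other genes of this role act on fatty-acid amides, inositol phosphates and dipeptides. LOC105190920, a fatty-acid amide hydrolase 2, belongs to enzymes that break down fatty-acid amides and was at 58.8, 56.0, 69.5 and 72.4 CPM in gamergate brains, 259, 94.6, 136 and 215 CPM in revertant brains and 131, 102, 96.3 and 88.1 CPM in worker brains. Its revertant brains varied most, with libraries 1, 3 and 4 above all workers. Ovary levels were 241, 177, 138 and 131 CPM in gamergate ovaries, 78.8, 62.6, 42.05 and 55.6 CPM in revertant ovaries and 101, 118, 54.1 and 109 CPM in worker ovaries, and gamergate libraries 1 and 2 were above libraries 3 and 4. LOC105183988, an inositol monophosphatase 2, frees inositol from inositol phosphates and lay near the floor of detection in the brain, with 1 to 7 reads in gamergates, 28 to 86 in the larger revertant libraries and 10 to 20 in workers. Its brain level was 0.602 to 3.99 CPM in gamergates, 4.18, 3.48, 5.97 and 20.9 CPM in revertants and 4.06 to 7.91 CPM in workers. Gamergate and revertant brains overlapped, and revertant library 4 stood above every other brain. Its ovary level was 32.9 to 67.0 CPM in gamergate ovaries, 2.48 to 14.9 CPM in revertant ovaries and 1.79 to 4.31 CPM in worker ovaries. Dip-C, a peptidase that cleaves dipeptides ending in proline, was at 64.5 to 78.1 CPM in gamergate brains, 94.0 to 126 CPM in revertant brains and 82.9 to 104 CPM in worker brains, and at 269 to 312 CPM in gamergate ovaries, 147 to 196 CPM in revertant ovaries and 157 to 211 CPM in worker ovaries.

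The 6 members assigned to the nervous system by name or symbol had large ovary fold changes. Their median over workers was 2.29 on the log2 scale. The level in ovaries of the other castes was low for all but LOC105186684, at 23.9 to 73.2 CPM in worker ovaries. Elk encodes a voltage-gated potassium channel of the ether-a-go-go family. It was at 73.6, 78.3, 76.7 and 66.7 CPM in gamergate brains, 109, 115, 119.98 and 129 CPM in revertant brains and 104, 125, 114 and 97.8 CPM in worker brains, without overlap of gamergates with the other castes. In the ovary Elk was at 57.2, 37.2, 14.2 and 12.1 CPM in gamergate ovaries, 4.81, 2.30, 1.42 and 0.959 CPM in revertant ovaries and 4.46, 8.61, 1.06 and 5.37 CPM in worker ovaries. Gamergate ovaries 1 and 2 held more than libraries 3 and 4, and all of them more than the rest. Dh44, diuretic hormone 44, is a neuropeptide related to corticotropin-releasing factor that acts on water balance and feeding circuits in Drosophila. It was at 5.66, 8.43, 5.002 and 7.99 CPM in gamergate brains, 14.2, 15.3, 11.2 and 14.8 CPM in revertant brains and 19.3, 17.1, 10.6 and 13.4 CPM in worker brains. In the ovary it was at 18.4, 18.1, 14.3 and 14.3 CPM in gamergate ovaries, 1.80, 1.35, 2.31 and 0.479 CPM in revertant ovaries and 1.49, 0.861, 1.197 and 2.15 CPM in worker ovaries, from 97 to 342 reads in gamergates, 1 to 13 in revertants and 2 to 9 in workers. From reads and library totals summed over libraries, Dh44 in gamergate ovaries was at 11.9 times its level in worker ovaries. The 95% exact interval was 7.64 to 19.5 (counting error only). Relative to revertant ovaries the ratio was 9.80 (6.69 to 14.9).

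Gycalpha99B, the alpha subunit of the soluble guanylate cyclase that senses nitric oxide, was at 267, 251, 238 and 229 CPM in gamergate brains, 300.4, 321, 292 and 319 CPM in revertant brains and 318, 316, 335 and 279 CPM in worker brains. In the ovary 178 to 490 of its reads were counted in gamergates, 2 to 7 in revertants and 1 to 25 in workers. Its pooled level there (summed reads over summed library totals) in gamergates was 10.5 times that in workers (95% exact interval 7.60 to 15.0). It was 24.1 times that in revertants (15.2 to 40.7). LOC105186684, named guanylate cyclase 32E after a receptor-type cyclase of Drosophila, was at 5.42 to 9.62 CPM in gamergate brains, 8.83 to 12.2 CPM in revertant brains and 12.0 to 15.2 CPM in worker brains. It was at 124, 124, 92.0 and 83.6 CPM in gamergate ovaries, 17.4, 24.2, 23.1 and 9.59 CPM in revertant ovaries and 38.4, 73.2, 23.9 and 24.2 CPM in worker ovaries, where worker library 2 came closest to the gamergates. LOC105186792, a transmembrane protein 35A, is known in mammals as a chaperone of nicotinic acetylcholine receptors. It was at 53.0 to 59.3 CPM in gamergate brains, 79.1 to 92.2 CPM in revertant brains and 68.5 to 78.1 CPM in worker brains, and at 10.9 to 12.5 CPM in gamergate ovaries, 1.44 to 5.32 CPM in revertant ovaries and 2.98 to 8.51 CPM in worker ovaries. Axed, which is needed for axon degeneration in Drosophila, was at 78.1 to 97.8 CPM in gamergate brains, 106 to 122 CPM in revertant brains and 99.3 to 129 CPM in worker brains, and at 19.8 to 28.01 CPM in gamergate ovaries, 3.37 to 15.8 CPM in revertant ovaries and 7.18 to 13.8 CPM in worker ovaries. The sum of 5 neuron symbols lay the other way in the ovary, at 47.2 to 67.1 CPM in gamergate ovaries. It was 114 to 196 CPM in revertant ovaries and 107 to 192 CPM in worker ovaries, with none at 0. In the brain the same sum was 2808 to 3099 CPM in gamergates. It was 3816 to 4382 CPM in revertants and 3184 to 4126 CPM in workers. The sum was thus lower in gamergate brains along with the members, but its genes differed. Means in gamergate and worker brains were 575 and 857 CPM for Syn, and 841 and 1159 CPM for para. They were 449 and 518 CPM for Syt1, 843 and 926 CPM for brp, and 246 and 243 CPM for nSyb. The part of these markers in the brain result was not tested.

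**Figure D2:**
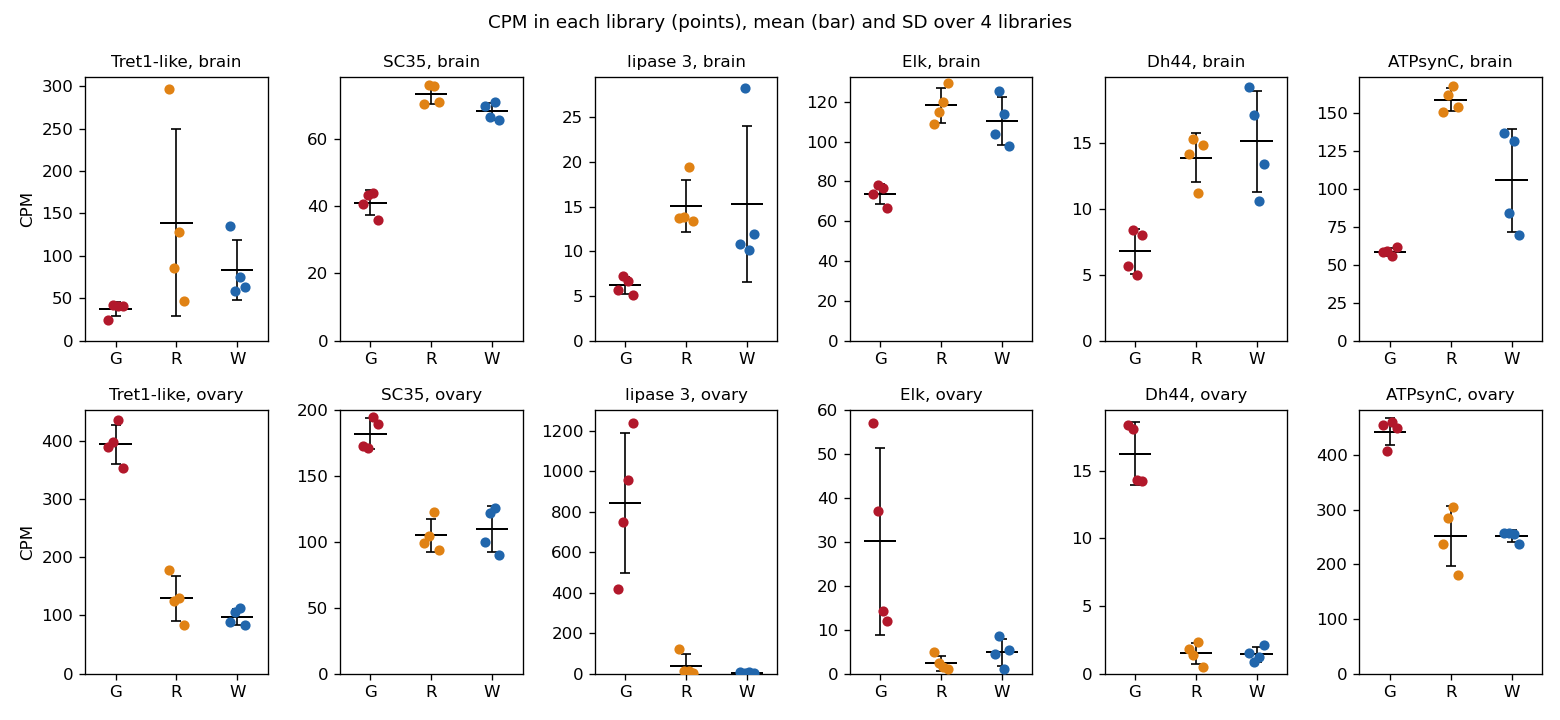
CPM of 6 members in each library (points; G gamergate, R revertant, W worker), with the mean as a bar and the SD over 4 libraries, in the brain (top) and the ovary (bottom); every vertical axis starts at 0 and has its own range. Gamergate points lie below all worker points in the top row and above all revertant and worker points in the bottom row, while revertant brains of Tret1 spread from 46.9 to 297 CPM.

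Of the signalling and membrane genes, LOC105186979, a small GTPase named ras-related and estrogen-regulated growth inhibitor, stood apart. It was at 24.3, 22.3, 13.9 and 13.7 CPM in gamergate brains, 25.9, 19.8, 28.1 and 36.7 CPM in revertant brains and 31.1, 46.8, 31.1 and 62.7 CPM in worker brains. Revertant brains overlapped both other castes, with library 2 inside the gamergate range. In the ovary 161 to 464 of its reads were counted in gamergates, against 0 to 7 in revertants and 1 to 2 in workers. Its pooled level (summed reads over summed library totals) in gamergate ovaries was 54.1 times that in worker ovaries (95% exact interval 24.8 to 148). It was 30.1 times that in revertant ovaries (17.2 to 58.5). LOC105185401, a PTB domain-containing engulfment adapter that links phagocytic receptors to the cell interior, was at 146 to 170.3 CPM in gamergate brains, 208 to 227 CPM in revertant brains and 193 to 227 CPM in worker brains. Its ovary level was 1053, 1003, 1059.9 and 1024 CPM in gamergate ovaries, 549, 546, 665 and 349 CPM in revertant ovaries and 426, 389, 666 and 413 CPM in worker ovaries, with gamergates within a narrow range and the others spread.

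LOC105181355, related to rolling stone, a membrane protein of muscle fusion in Drosophila, was at 18.7 to 24.3 CPM in gamergate brains, 30.04 to 45.4 CPM in revertant brains and 27.7 to 65.6 CPM in worker brains. Worker brains 1 and 3, the larger libraries, were above worker brains 2 and 4. Its ovaries ranged over 65.0 to 81.8 CPM in gamergate ovaries, 16.3 to 51.6 CPM in revertant ovaries and 17.7 to 46.8 CPM in worker ovaries. LOC105186717, a phosphatase of the membrane lipid phosphatidylinositol 4,5-bisphosphate, was at 37.1 to 53.4 CPM in gamergate brains, 64.3 to 74.3 CPM in revertant brains and 60.6 to 71.0 CPM in worker brains, and at 118 to 133 CPM in gamergate ovaries, 59.0 to 82.0 CPM in revertant ovaries and 63.1 to 68.2 CPM in worker ovaries. Sulf1, an extracellular enzyme that trims sulfate from heparan sulfate and so tunes growth factor binding, was at 93.4 to 114 CPM in gamergate brains, 129.99 to 204 CPM in revertant brains and 122 to 171 CPM in worker brains. Its ovary ranges, 105 to 135 CPM in gamergate ovaries, 39.2 to 77.6 CPM in revertant ovaries and 38.03 to 102 CPM in worker ovaries, nearly met, since worker library 2 was just under the lowest gamergate. The protease stl, which is required for the forming ovary follicle in Drosophila, was at 18.1 to 21.1 CPM in gamergate brains, 25.3 to 28.4 CPM in revertant brains and 21.7 to 30.6 CPM in worker brains, and at 58.2, 47.2, 31.2 and 33.3 CPM in gamergate ovaries, 8.42, 6.36, 3.55 and 24.5 CPM in revertant ovaries and 13.99, 10.8, 4.39 and 13.96 CPM in worker ovaries. Revertant ovary 4 was well above the other revertants. Ist1, of the membrane-cutting ESCRT machinery, and the scaffold protein RanBPM had log2 fold changes of gamergates over workers of −0.37 and −0.26 in the brain, and of 0.98 and 0.87 in the ovary.

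Brain differences varied in size among the mitochondrial members. ATPsynC encodes the c subunit, which forms the rotating ring of the ATP synthase in the inner membrane, and was at 58.3, 59.0, 55.6 and 61.6 CPM in gamergate brains, 151, 162, 168 and 155 CPM in revertant brains and 137, 84.3, 132 and 69.5 CPM in worker brains. All 4 revertants were above all 4 workers, and worker libraries 1 and 3 were above libraries 2 and 4. In the ovary it was at 456, 407, 461 and 451 CPM in gamergate ovaries, 237, 286, 305 and 181 CPM in revertant ovaries and 259, 257, 257 and 237 CPM in worker ovaries. ATPsyngamma, the central shaft of the same enzyme, was at 87.1 to 93.9 CPM in gamergate brains, 130.3 to 158 CPM in revertant brains and 109 to 134 CPM in worker brains, and at 193 to 236 CPM in gamergate ovaries, 146 to 177 CPM in revertant ovaries and 140.2 to 163 CPM in worker ovaries. COX5A, a subunit of cytochrome c oxidase, was at 80.3, 72.9, 83.4 and 89.6 CPM in gamergate brains, 96.4, 113, 128 and 119 CPM in revertant brains and 106, 119, 107 and 109 CPM in worker brains, and at 149.8 to 169 CPM in gamergate ovaries, 87.0 to 119.6 CPM in revertant ovaries and 81.8 to 115 CPM in worker ovaries. The mitochondrial translation factor mEFTs, the ribosomal protein mRpS16 and glutamate dehydrogenase (Gdh), which feeds glutamate into the citric acid cycle, had log2 fold changes of gamergates over workers of −0.37, −0.38 and −0.43 in the brain, and of 0.70, 0.71 and 0.42 in the ovary. Over the 6 mitochondrial members the median was −0.45 in the brain and 0.71 in the ovary, against −0.79 in the 5 tested and 2.38 in all 7 genes of metabolism and transport.

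SC35, a serine/arginine-rich splicing factor, had an even brain difference. It was at 40.7, 43.4, 43.9 and 35.9 CPM in gamergate brains, 70.4, 75.9, 75.8 and 70.9 CPM in revertant brains and 69.6, 66.6, 71.0 and 65.7 CPM in worker brains, and the castes other than gamergates formed 1 narrow range. Its ovary level was 173, 172, 195 and 189 CPM in gamergate ovaries, 99.2, 104, 123 and 94.0 CPM in revertant ovaries and 100.3, 122, 126 and 90.2 CPM in worker ovaries. The transcriptional repressor dpn, which in Drosophila keeps neural stem cells dividing, was at 5.09, 2.41, 1.67 and 2.85 CPM in gamergate brains, 7.32, 5.34, 7.91 and 9.96 CPM in revertant brains and 8.52, 13.8, 10.6 and 5.97 CPM in worker brains. In the ovary dpn was at 129.6, 137, 113 and 105 CPM in gamergate ovaries, 12.0, 16.4, 20.9 and 8.15 CPM in revertant ovaries and 16.7, 5.17, 8.78 and 10.2 CPM in worker ovaries, with a log2 fold change of 3.72 over workers. The elongation factor TfIIS, the initiation factor subunit TfIIA-L and LOC105185461, related to the repressor YY1, had log2 fold changes over workers of −0.40, −0.45 and −0.37 in the brain, and of 0.77, 0.61 and 0.41 in the ovary. Translation initiation factor 3 had 2 members. The subunit eIF3l was at 53.0 to 70.2 CPM in gamergate brains, 86.5 to 99.1 CPM in revertant brains and 81.4 to 93.6 CPM in worker brains, and at 334 to 379.6 CPM in gamergate ovaries, 229 to 259 CPM in revertant ovaries and 225 to 250.3 CPM in worker ovaries, while eIF3d1 was at 128 to 147 CPM in gamergate brains, 151 to 179.8 CPM in revertant brains and 151 to 167 CPM in worker brains, and at 419 to 481 CPM in gamergate ovaries, 343 to 411 CPM in revertant ovaries and 319 to 406 CPM in worker ovaries. Rpn3, of the regulatory particle of the proteasome, was at 86.1 to 92.4 CPM in gamergate brains, 106 to 131 CPM in revertant brains and 94.7 to 109 CPM in worker brains, and at 219.7 to 245 CPM in gamergate ovaries, 136 to 167 CPM in revertant ovaries and 129 to 147 CPM in worker ovaries. The 4 genes without an assigned role, LOC105184425, LOC105187973, LOC105185157 and Srp54, had log2 fold changes over workers between −0.53 and −0.30 in the brain and between 0.80 and 2.08 in the ovary.

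The levels of the same gene in both tissues were set side by side, with the caveat that each tissue table was scaled by its own totals and that the rule favours the ovary in gamergates. All brain columns carry the same lane code in their names and all ovary columns another, so lane and tissue cannot be told apart. In gamergates, every ovary was above every brain for 33 of 39 members, beside 42.4% of the 7785 genes, and below for Elk, LOC105186792, Gycalpha99B and axed, beside 34.8%. In revertants the counts were 14 above and 10 below, beside 47.4% and 17.5% of all genes, and in workers 18 above and 10 below, beside 33% and 16.3%. Dh44 was among those that lay above in gamergate ovaries and below in both other castes, at 14.3 to 18.4 CPM in gamergate ovaries and 5.002 to 8.43 CPM in gamergate brains.

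Revertants were set against both castes to ask on which side their brains lay. The rule used the gamergate brains as the low side and the worker brains as the high side, but no revertant brain. Since the same gamergate brains, chosen as low, form 1 side of the comparison with revertants, the choice favours revertants above gamergates, and its values are a description with nothing read from the counts. Relative to revertants, 34 of 39 members were called lower in gamergate brains and 0 higher (edgeR quasi-likelihood test, Benjamini-Hochberg adjusted p under 0.05), beside 29.9% of the 8987 genes tested that were called lower and 27.4% that were called higher. The median log2 fold change of the members was −0.72, beside 0.00 over all genes. Every revertant brain was above every gamergate brain in 31 of 39 members, beside 16.9% of the 7785 genes. Of the 156 revertant brain values, 144 were above the highest gamergate of that gene, 82 were within the worker range, 47 above it and 27 below it.

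The differences varied in size among the members. The log2 fold change of gamergate over revertant brains in the edgeR fit was −4.33 (standard error 0.52) for the carboxylesterase LOC105191384, −2.10 (standard error 0.51) for Tret1 and −1.61 (standard error 0.07) for ATPsynC. It was −1.01 (standard error 0.08) for SC35, −0.85 (standard error 0.07) for Elk and −1.21 (standard error 0.22) for Dh44. The 5 members not called were LOC105182337, LOC105183988, LOC105184425, LOC105185157 and guanylate cyclase 32E, with log2 fold changes of −0.85, −1.80, −0.29, −0.38 and −0.53. Since gamergates and revertants lay in different library size classes, no comparison within a class was possible. Only workers held libraries of both classes, so a term for size class rested on worker libraries 1 and 3 against 2 and 4. In 1 fit of all 12 brain libraries with size class as a term, 2 of 39 members were called lower, beside 0.35% of 9148 genes, and the median log2 fold change was −0.42. These were SC35, at −0.67 (standard error 0.13), and lipase 3, at −2.17 (standard error 0.42). With that term LOC105191384 was at −2.86 (standard error 0.77), Tret1 at −1.05 (standard error 0.84) and ATPsynC at −0.56 (standard error 0.13), and none of them was called. Elk was at −0.64 (standard error 0.15) and Dh44 at −0.99 (standard error 0.42), also not called.

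The worker brains of the next comparison were chosen as high, which favours revertants below workers. Between revertant and worker brains 0 of 39 members were called in either direction by the edgeR quasi-likelihood test, beside 0% of 9360 genes, and DESeq2 also called 0. At an unadjusted p under 0.05, 6 members were higher in revertants and 0 lower, beside 6.97% and 9.28% of all genes. The 6 were TMEM35A (LOC105186792) at 0.32 (standard error 0.11) on the log2 scale, ATPsynC at 0.65 (standard error 0.24), the amide hydrolase LOC105190920 at 0.85 (standard error 0.31), mEFTs at 0.37 (standard error 0.14), ATPsyngamma at 0.32 (standard error 0.12) and Rpn3 at 0.30 (standard error 0.10). Each had an adjusted p of 0.298 in edgeR's test. Every revertant brain was above every worker brain for LOC105186792 and ATPsynC, beside 2.95% of all genes, and below for LOC105184425 and TfIIS, beside 7% of all genes. Over all members the median log2 fold change of revertants over workers was 0.16, and 0.07 among the 6 libraries over 3500000 counts. The mean of the revertant brains was above that of worker brains in 25 of 39 members, beside 35% of the 7785 genes, and above that of gamergate brains in all 39, beside 36.6%, and the choice of low gamergate brains favours the second of these counts.

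**Figure D3:**
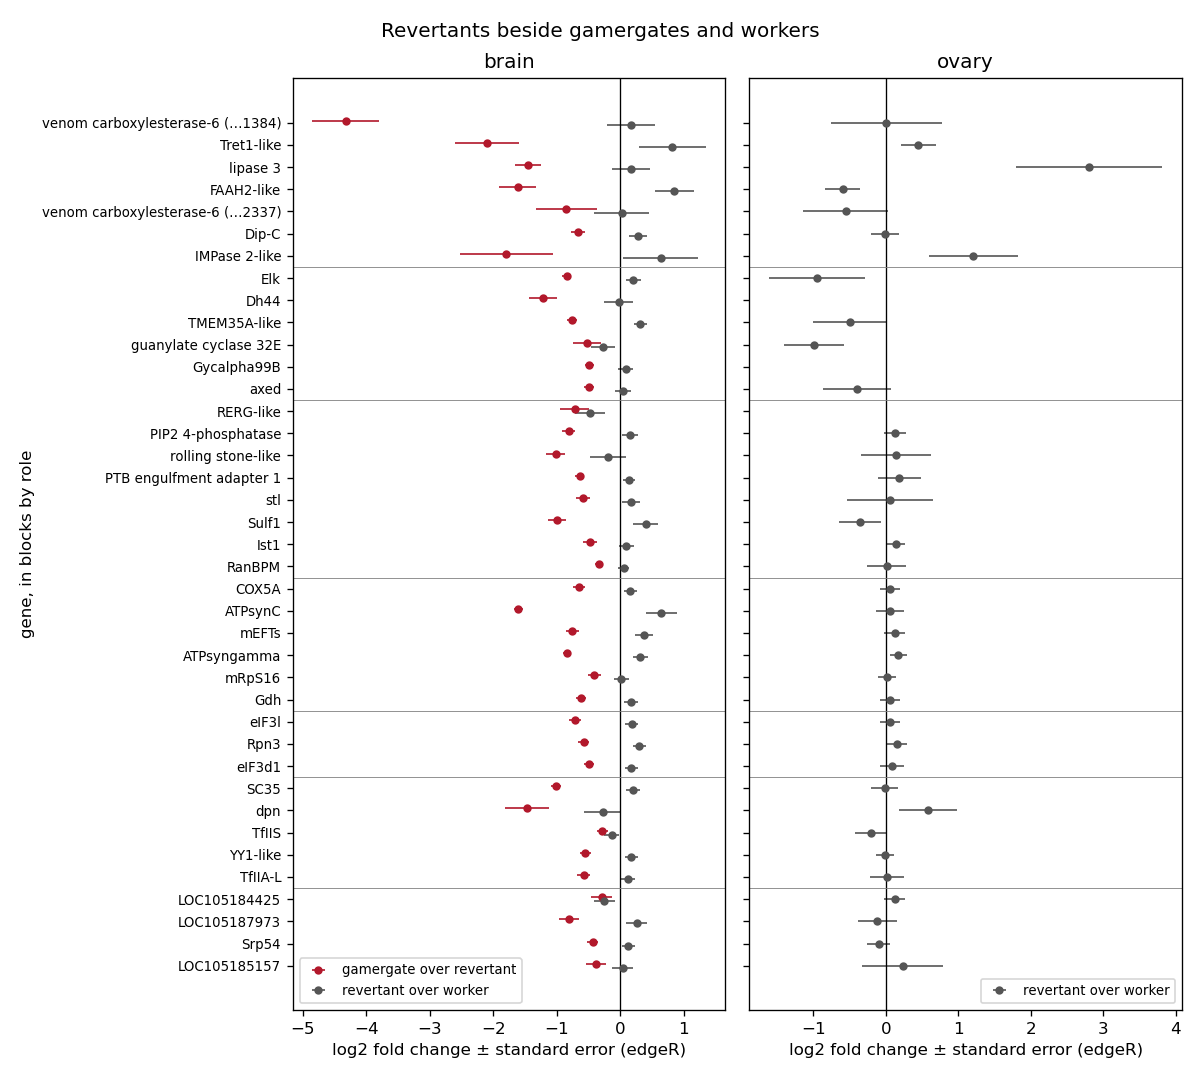
Log2 fold changes with their standard errors (edgeR quasi-likelihood fits) of each member, in blocks by role, for gamergate over revertant (red) and revertant over worker (grey) in the brain, and revertant over worker in the ovary (36 members tested). Red points lie between −4.33 and −0.28, and grey points in the brain between −0.48 and 0.85.

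Ovaries of revertants and workers entered the rule together, so their difference was not used. The edgeR quasi-likelihood test called 0 of 36 members in either direction, beside 0% of 8667 genes, and DESeq2 called 0 of 39. At an unadjusted p under 0.05, 1 member was higher in revertants and 2 were lower, beside 2.04% and 2.31% of all genes. The higher one was lipase 3 at 2.81 (standard error 1.01, adjusted p = 1) on the log2 scale, a value that rests on revertant ovary 1, at 123 CPM, since the other revertants were at 3.84 to 13.1 CPM and workers at 2.15 to 7.18 CPM. Without revertant library 1 it was 0.97. The lower ones were the amide hydrolase LOC105190920 at −0.60 (standard error 0.24, adjusted p = 1) and guanylate cyclase 32E (LOC105186684) at −0.99 (standard error 0.41, adjusted p = 1). For no member was every revertant ovary above or below every worker ovary, beside 0.565% and 1.32% of all genes. The median over the tested members was 0.05. LOC105186979, Dh44 and Gycalpha99B had too few reads in both castes to be tested, with at most 25 reads in any of these 8 libraries.

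The members were set beside the other genes of the complexes they belong to, which were listed by RefSeq symbol. Of 9 ATP synthase subunits, 4 had a positive brain gap and 3 a positive ovary gap, beside 5.38% and 17.4% of the 7785 genes. ATPsynC and ATPsyngamma had both. In edgeR's test 4 of the 9 were called higher in gamergate than worker ovaries and 0 lower, beside 29.4% and 28.9% of all genes. The same shares of all genes stand beside the counts of each group below. Proteasome subunits rose widely in the gamergate ovary, with 28 of 30 called higher and 0 lower and a median log2 fold change of 0.67, but only Rpn3 had a brain gap. Of 70 mitochondrial ribosomal proteins, 43 were called higher and 1 lower in gamergate ovaries, and 2 had a brain gap, beside 5.38% of all genes. Of 45 respiratory chain subunits 20 were called higher and 1 lower, and 5 had a brain gap. Of 12 subunits of initiation factor 3, 4 were called higher, near the 29.4% of all genes, and 1 lower. The only brain gaps in this group were those of eIF3l and eIF3d1. Of 18 tested general transcription factors 13 were called higher and 1 lower, and TfIIS and TfIIA-L held the only brain gaps. In the brain edgeR's test called 0 of the 184 genes of these 6 groups between gamergates and workers, while 9 were higher and 21 lower at an unadjusted p under 0.05, beside 7.59% and 11% of all genes, and DESeq2 called 1 higher and 6 lower, beside 1.11% and 2.4%. The median log2 fold change was −0.19 for the ATP synthase, −0.04 for the respiratory chain, 0.05 for mitochondrial ribosomal proteins, −0.02 for initiation factor 3, −0.09 for the proteasome and 0.15 for the transcription factors.

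**Figure D4:**
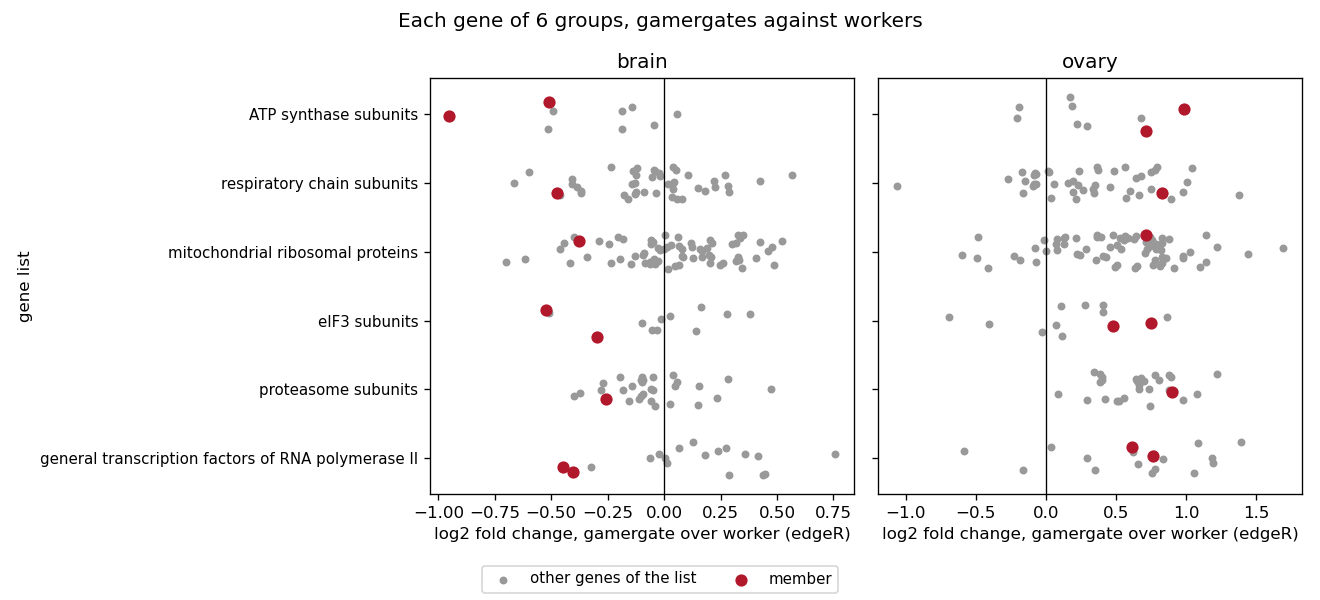
Log2 fold change of gamergates over workers (horizontal axis, edgeR) for each gene of 6 groups in the brain and in the ovary; red points are members and grey points the other genes, and vertical scatter within a group only separates the points. Proteasome subunits have a median of −0.09 in the brain and 0.67 in the ovary.

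Among ion channels and membrane transporters a brain gap was common and an ovary gap uncommon. Of 54 ion channels and transmitter receptors with a protein name at hand, 35 reached the minimum level in both tissues. Among these 14 had a brain gap and 2 an ovary gap, beside 5.38% and 17.4% of all genes, and only Elk had both. In gamergate ovaries 3 of the 42 tested were called higher than in worker ovaries and 23 lower, with a median log2 fold change of −1.03. Of 82 membrane transporters, 65 reached the minimum level, of which 24 had a brain gap and 6 an ovary gap, beside the same shares, and the Tret1 gene was the only member. Of 16 neuropeptides, peptide hormones and their receptors, 5 reached it. Of these 4 had a brain gap and 2 an ovary gap, beside the same shares, and Dh44 was the only member. Relative to revertant brains, 47 of 53 tested channels were called lower in gamergates and 1 higher, beside 29.9% and 27.4% of all genes. Protein names at hand cover 3328 genes and favour those that ranked high in the brain, so these counts do not describe all genes of a kind.

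Further splits within a caste ran through the members and were noticed after the values had been seen. In the ovary, gamergate libraries 1 and 2 were both above libraries 3 and 4 in 15 of 39 members (38.5%), beside 9.04% of the 7785 genes, and both below in 7 (17.9%), beside 19.1%. The 15 included all 6 genes assigned to the nervous system by name or symbol, and also Sulf1, stl and dpn. In the brain, the larger worker libraries 1 and 3 were both above libraries 2 and 4 in 11 of 39 members (28.2%), beside 23.6% of all genes, and both below in 6 (15.4%), beside 55%. The median difference of larger minus smaller worker libraries was 0.04 log2 units in the members and −0.27 over all genes. Relative to the smaller and the larger worker libraries, gamergate brains were at −0.38 and −1.19 log2 units for ATPsynC and at −0.46 and −1.45 for LOC105181355. Medians over the members were −0.42 and −0.48, with both signs set by the rule.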

How the data were processed

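The authors isolated polyA RNA from single ants, made strand-marked libraries, aligned the reads with STAR (2.5.3a in the submitters' processing notes) and deposited 1 table of raw gene counts per tissue. The program and annotation that gave the counts, its use of strand and its treatment of reads that match several genes are not given in the sources used here. All 24 columns matched a library by name, and 0 were left unmatched. The 12 fat body libraries were not used here. From the deposited counts, castes were compared in pairs, tissue by tissue, with edgeR 4.0.16 in R 4.3.3 (TMM scaling, filterByExpr, quasi-likelihood test, Benjamini-Hochberg adjustment over all genes tested). Standard errors are the fold change divided by the root of F. DESeq2 1.42.0, other scalings, no filter, a replicate block, a library size class term and each library left out were alternatives. The fits were tested on simulated data. Intervals for low counts are exact 95% intervals of the ratio of summed counts, each taken over the summed library totals, and cover counting error only. Reads carry no molecular identifiers.

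The members, the gene lists and the size limit of 3500000 counts were chosen with earlier results of these data known. Genes given in full were the 12 members with the largest smaller gap, members of gene lists made from protein names (up to 4 a list), and 3 genes on each side of the threshold. All other members were named after their values had been seen. Symbols came from a RefSeq gene table (12631 of 12654 identifiers matched) and protein names from a supplementary table of the study.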

Additional observations from a re-analysis of the deposited data

Results flagged for a closer look

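Among the 234 sets of 4 libraries (39 members, 3 castes, 2 tissues), 12 had 1 library far from the other 3, with a gap to its nearest neighbour, as a share of the whole range on the log2(CPM + 1) scale, above the 95% limit of Dixon's test for 4 values. This is 5.13% of the sets, and chance alone marks about 1 in 20. In the brain, gamergate library 1 was the lowest for Tret1 (LOC105189530, 0.927 of the range) and Dip-C (0.887), and gamergate library 3 was the highest for LOC105182337 (0.849) and the lowest for TfIIA-L (0.910). Revertant brain 3 was the highest for lipase 3 (LOC105186640, 0.918) and revertant brain 4 the lowest for Sulf1 (0.951). Worker brain 2 was the highest for lipase 3 (0.842) and worker brain 3 the lowest for the engulfment adapter LOC105185401 (0.850). In the ovary, gamergate library 2 was the lowest for ATPsyngamma (0.831) and gamergate library 4 the highest for mRpS16 (0.919), while worker library 4 was the lowest for ATPsynC (0.920) and worker library 1 the highest for mEFTs (0.859). No library was the far one for more than 2 members. Revertants and workers moved in opposite directions in brain and ovary without overlap for 0 members.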

How the results depend on the processing

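The list of members depends on the scaling. With TMM-scaled library sizes 69 genes met the rule, of which 30 were among the 39, and with DESeq2 size factors 59 genes did, of which 31 were. A minimum of 20 CPM left 25 genes, and a brain gap taken over the 2 worker brains under 3500000 counts gave 331. Leaving out 1 library gave 39 to 59. Thinning every library to the smallest of its tissue gave 28, of which 24 were among the 39.

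Of the members, 2 were called lower in gamergate than worker brains. This count was 1 with library size only, beside 72 of 8481 genes, 15 with DESeq2, beside 2.4% of 9707, and 0 with the replicate block, beside 32 of 8481. It was 6 with library size class as a term, beside 1.31%, and 5 among the libraries under 3500000 counts, beside 2.11%. With 1 library left out it was 0 to 20, and the share of all genes was not determined there. The count of 34 lower in gamergate than revertant brains was 2 with library size class as a term and 32 to 35 with 1 library left out, and with that term LOC105181355 and LOC105184425 turned to 0.24 and 0.042 on the log2 scale. The counts for the ovaries stayed within 1.5 times under every alternative, at 38 to 39 over workers and 37 to 39 over revertants with 1 library left out. Between revertants and workers, 0 members were called in either tissue under every alternative. The count of 31 members with every revertant brain above every gamergate brain was 35 with TMM-scaled sizes or DESeq2 size factors, 25 after thinning and 31 to 34 with 1 library left out, alternatives added after the data had been seen. Of 2318 refitted fold changes of named genes, 2189 kept their direction and call, 85 lost the call, 42 gained it and 2 reversed. With library size class as a term 36 lost it, and with 1 library left out 33 did. Except as given here, the cause of a difference between settings was not tested.

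Whether replicate numbers in the titles pair the libraries of different castes was not settled. The deviations of same-numbered libraries from their caste means correlated at −0.20 to 0.50 across genes, and in 0 of 6 comparisons did every pair exceed 0.1. Ovaries of revertants and workers held the highest values, at 0.28, −0.20, 0.50 and 0.43 for replicates 1 to 4. The replicate block called 35 members lower in gamergate than revertant brains, beside 2678 of 8987 genes. It called 39 higher in gamergate than worker ovaries, beside 2644 of 9267 genes, and 37 higher in gamergate than revertant ovaries, beside 2298 of 9228 genes.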
